A study of Mus musculus with 17 samples.

Results

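The forebrains of newborn Ocn-/- mice were compared with those of newborn WT mice. The comparison took 6 of the 17 libraries of the study, all labelled Hippocampus at postnatal day 1, with 3 labelled KO and 3 labelled WT. The study asked how osteocalcin of maternal and embryonic origin shapes physiology of the offspring, and sequenced polyadenylated RNA of testes and forebrain. The WT pups were born from WT mothers, and the Ocn-/- pups, which carry the OcnGK null allele on the 129/SvEv background, were born from Ocn-/- mothers. Ocn+/- pups born from Ocn-/- mothers made another group of 3 forebrain libraries. The genotype of the pup, the genotype of the mother and the litter therefore change together between KO and WT, and cannot be told apart here. The labels name the hippocampus and the study's methods name the forebrain. Drd1 and Drd2, dopamine receptors abundant in striatum, were detected in all 6 libraries, and no level expected from hippocampus alone was available for comparison. The tissue is called forebrain below, as in the methods.

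Osteocalcin is a hormone made by osteoblasts that reaches the brain, and it is encoded in the mouse by Bglap and Bglap2. Its receptors include Gprc6a in peripheral organs and Gpr158 in neurons. Glucose enters the brain through Slc2a1 of the vessel wall and is broken down by glycolysis. Hypoxia-inducible factors are transcription factors that raise glycolytic enzymes, Slc2a1 and the vessel growth factor Vegfa when oxygen is low.

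WT replicate 3 stood apart from the other libraries before any test was made. It held 6518128 gene counts, against 8778563 to 14454042 in the other 5 KO and WT libraries. Structural RNA, which is mostly ribosomal RNA, made 10.9% of its counts and 0.482% to 1.09% of those of the other 8 forebrain libraries. Mitochondrially encoded genes made 5.34% of its counts and 2.40% to 3.18% elsewhere. It held 11704 counts of Xist, the RNA of the inactive X chromosome, and 0 counts of the Y-linked genes Ddx3y, Kdm5d, Eif2s3y and Uty, while the other 8 libraries held at most 7 counts of Xist and at least 109 of each Y-linked gene. The study states that the pups were males, so the library labelled WT 3 carries the RNA pattern of a female. Its log2 CPM correlated with the other libraries at r of 0.962 to 0.976 across genes, which are not independent replicates, against 0.974 to 0.986 among the other 8. The results are therefore given with all libraries and without WT 3, and a single value is from all libraries unless stated otherwise.

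**Figure D1:**
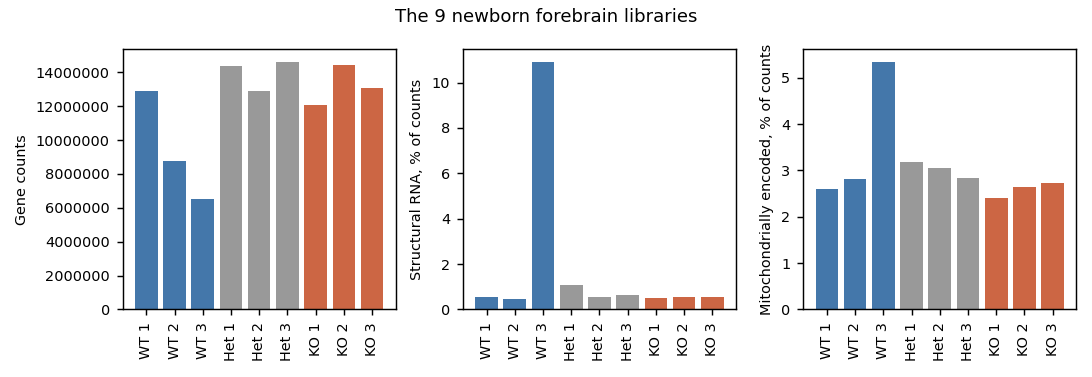
Bars give, for each of the 9 forebrain libraries, the total gene counts, the percent of counts from structural RNA and the percent from mitochondrially encoded genes, with WT in blue, Ocn+/- (Het) in grey and KO in orange. WT 3 had the fewest counts (6518128), 10.9% structural RNA and 5.34% mitochondrially encoded RNA.

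Osteocalcin transcripts were too scarce to check the genotype. Bglap had 5, 1 and 0 counts in the WT libraries and 0, 1 and 1 in the KO libraries, and Bglap2 had 0 in all 6. Of the receptors, Gprc6a had 4, 2 and 0 counts in WT and 2, 2 and 0 in KO. Levels are given as TMM-scaled CPM, the counts of a gene relative to the scaled total of its library. Gpr158 was at 16.8, 13.6 and 15.5 CPM in WT and 18.8, 22.0 and 21.2 CPM in KO. The KO libraries of Gpr158 all lay above the WT libraries, but the difference did not pass the test (log2 fold change 0.43, SE 0.15, edgeR adjusted p = 0.102, and 0.221 without WT 3). Gpr37, another receptor of the list, was at 8.01, 8.75 and 8.54 CPM in WT and 12.7, 13.3 and 6.93 CPM in KO, so the genotypes overlapped, and it did not pass (log2 fold change 0.38, SE 0.21, edgeR adjusted p = 0.292, and 0.451 without WT 3). Gpr37l1, an orphan receptor of glia related to Gpr37, was higher in KO with all libraries (log2 fold change 1.48, SE 0.33, edgeR adjusted p = 0.0169) and did not pass without WT 3 (1.23, adjusted p = 0.0766).

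With all forebrain libraries, 780 of 16076 tested genes (4.85%) passed an edgeR adjusted p of 0.05, 290 higher (1.8%) and 490 lower (3.05%) in KO. Without WT 3, 189 of 16432 genes (1.15%) passed, 41 higher (0.25%) and 148 lower (0.901%). In both fits 186 genes (1.16%) passed, which is 23.8% of the first set and 98.4% of the second, and 40 of them were higher (0.249% of tested genes) and 146 lower (0.908%) in KO. Every one of the 186 had KO libraries that did not overlap the 3 WT libraries, and over all tested genes 12.9% had all KO above all WT and 13.9% all KO below. The 186 genes are the ones described as changed below. The count depended on single libraries. With all libraries it was 478 without KO 1, 278 without KO 2 and 363 without WT 2, and from the 189 without WT 3 it fell to 83 without KO 2, 40 without WT 1 and 15 without WT 2, while it rose to 343 without KO 3. Where WT 1 or WT 2 was left out besides WT 3, a single WT library remained and was assumed to vary like the other groups. Vegfa, Slc2a1, Gpi1, Eno1, Spp1 and Lgi2 passed under all 33 alternatives run. With library size alone as the scaling, the median log2 fold change of all genes moved from 0.01 to 0.11, and 415 of 643 called genes were then higher.

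**Figure D2:**
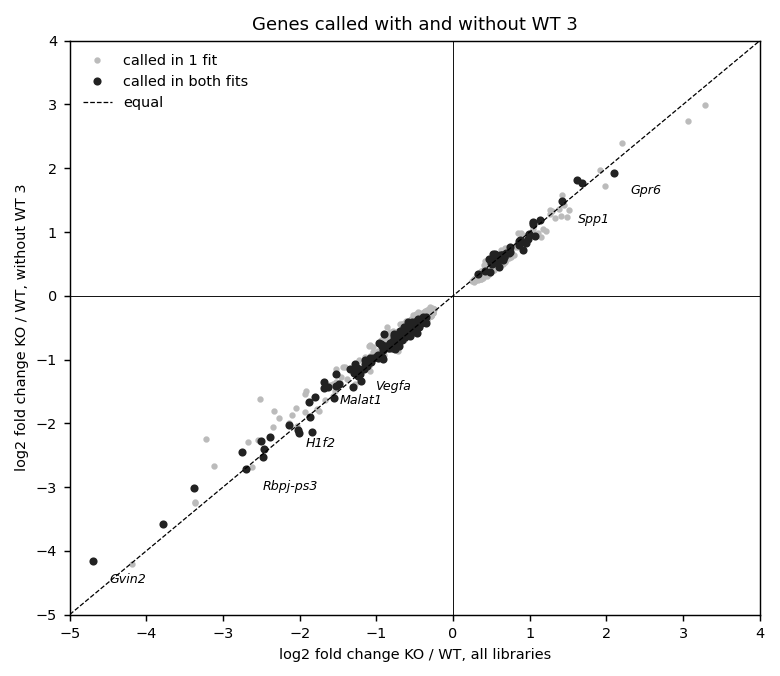
Each point is a gene called with or without WT 3, with its log2 fold change of KO over WT from all libraries on the x axis and from the fit without WT 3 on the y axis; black points are the 186 genes called in both. Points lie near the dashed line of equal values, and the lower left holds 146 of the 186.

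Several glycolytic enzymes were lower in the Ocn-/- forebrain. Of 17 tested glycolysis genes, 6 were lower and 0 higher with all libraries, and 5 were lower and 0 higher without WT 3. The background over all genes was 4.85% called with all libraries and 1.15% without WT 3. The median log2 fold change of the 17 genes was -0.22 with all libraries and -0.27 without WT 3, against 0.01 for all genes in each fit. The 5 genes that passed in both fits were Gpi1, Pfkl, Pfkp, Tpi1 and Eno1, which act from the isomerisation of glucose 6-phosphate to the formation of phosphoenolpyruvate.

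Gpi1, glucose-6-phosphate isomerase (chr7:33900755-33929780, GRCm39, minus strand), was at 273, 329 and 343 CPM in WT and 150.1, 171 and 178 CPM in KO. All 3 KO libraries lay well below all 3 WT libraries (log2 fold change -0.92, SE 0.09, edgeR adjusted p = 1.97e-05, and -0.85 with adjusted p = 0.000247 without WT 3). Eno1, the widely expressed enolase (chr4:150321073-150337027, plus strand), was at 315, 391 and 367 CPM in WT and 211, 210.0 and 217 CPM in KO. Its log2 fold change was -0.75 (SE 0.08, edgeR adjusted p = 2.82e-05) and -0.73 (adjusted p = 0.000354) without WT 3. Of Eno1's sequence stretches of 50 bases, 25.8% also occur in another gene, and the summed level of Eno1 and its copy Eno1b was 550 ± 60.0 CPM in WT and 337 ± 13.1 CPM in KO (SD, n = 3 each).

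Both Pfkl and Pfkp encode phosphofructokinases, which commit glucose to glycolysis. Pfkl, the liver-type form, was at 86.5, 104 and 104 CPM in WT and 64.3, 60.1 and 53.1 CPM in KO (log2 fold change -0.73, SE 0.10, edgeR adjusted p = 0.000443, and 0.00496 without WT 3). Pfkp, the platelet-type form, was at 433, 396 and 397 CPM in WT and 271, 217 and 266 CPM in KO (log2 fold change -0.70, SE 0.10, edgeR adjusted p = 0.000834, and 0.00878 without WT 3). Tpi1, triosephosphate isomerase, changed least, from 187, 213 and 170 CPM in WT to 148, 147 and 151 CPM in KO (log2 fold change -0.36, SE 0.09, edgeR adjusted p = 0.0208, and 0.0195 without WT 3). Without both WT 2 and WT 3, adjusted p rose to 0.212 for Pfkl and 0.442 for Tpi1, and without both WT 1 and WT 3 it rose to 0.11 for Pfkp.

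Transporters of glucose and of monocarboxylates such as lactate moved in both directions. Of 9 tested, Slc2a1, Slc16a3 and Slc16a6 were lower and Slc16a1 was higher in both fits, against 0.908% of all genes lower and 0.249% higher in both. Slc2a1, the glucose transporter of brain endothelium (chr4:118965908-118996365, plus strand), was at 74.0, 88.6 and 93.2 CPM in WT and 39.5, 36.9 and 39.0 CPM in KO. The KO libraries lay close together and below every WT library (log2 fold change -1.14, SE 0.11, edgeR adjusted p = 1.44e-05, and -1.07 with adjusted p = 0.000247 without WT 3). Slc16a3, a lactate exporter of glycolytic cells, was at 4.42, 6.91 and 8.72 CPM in WT and 1.76, 2.01 and 1.81 CPM in KO (log2 fold change -1.81, SE 0.30, edgeR adjusted p = 0.00219, and 0.0218 without WT 3). Slc16a6 was at 34.8, 32.9 and 34.9 CPM in WT and 11.9, 14.0 and 19.8 CPM in KO (log2 fold change -1.17, SE 0.20, edgeR adjusted p = 0.00491, and 0.0348 without WT 3). Slc16a1, the monocarboxylate transporter of brain vessels and glia, was at 33.9, 27.1 and 26.7 CPM in WT and 45.0, 51.5 and 51.0 CPM in KO (log2 fold change 0.74, SE 0.12, edgeR adjusted p = 0.00132, and 0.0109 without WT 3). Without both WT 2 and WT 3, adjusted p was 0.442 for Slc16a3, 0.298 for Slc16a6 and 0.304 for Slc16a1.

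Downstream of glycolysis, few genes passed in both fits. Over all genes, 0.908% were lower and 0.249% higher in both fits. Pdk1, a kinase that holds pyruvate back from the mitochondrion, was the only member of 11 tested genes of pyruvate entry to pass in both fits, at 68.9, 79.9 and 98.2 CPM in WT and 50.6, 51.4 and 49.5 CPM in KO (log2 fold change -0.70, SE 0.11, edgeR adjusted p = 0.00122, 0.00922 without WT 3, and 0.304 without both WT 2 and WT 3). Of 16 tested genes of the TCA cycle, 1 was higher with all libraries (Ogdh) and 0 without WT 3. Of 82 tested oxidative phosphorylation subunits, 6 were higher with all libraries, and 0 of 83 passed without WT 3. The 6 are 7.32% of the 82, against 1.8% of all genes higher. Small shifts were mostly upward. With all libraries, 15 of the 16 TCA genes and 70 of the 82 subunits had log2 fold changes above 0, with medians of 0.12 and 0.16. Without WT 3 it was 13 of 16 and 66 of 83, with medians of 0.11 and 0.11. The median of all genes was 0.01 in each fit. Of 7 listed genes of gluconeogenesis, only 3 (Pck2, G6pc3 and Pcx) had enough counts to be tested. None of these passed in either fit, and nothing can be said of the others.

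**Figure D3:**
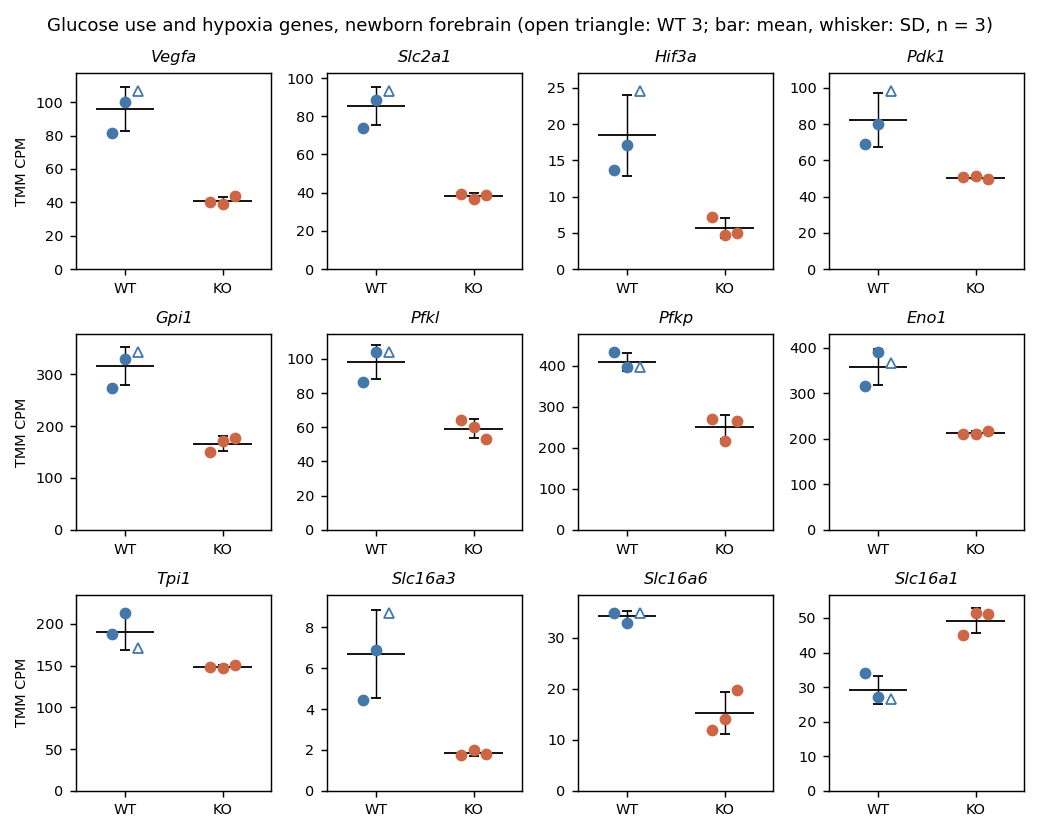
Points give TMM CPM of 12 genes of glucose use and hypoxia in the 3 WT (blue; open triangle, WT 3) and 3 KO (orange) forebrain libraries, with the mean as a bar and the SD as whiskers; each vertical axis starts at 0. Slc16a1 is higher in KO and the other 11 genes are lower, with no overlap between the genotypes.

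Part of the genes known to be induced by hypoxia-inducible factors were lower in KO. Of 26 tested targets, 11 were lower and 1 (Angptl4) higher with all libraries, and 5 were lower and 0 higher without WT 3, with medians of -0.33 and -0.34 on the log2 scale. Over all genes, 3.05% were lower with all libraries and 0.901% without WT 3, with a median of 0.01 in each fit. The 5 were Vegfa, Bnip3, Pdk1, Slc2a1 and Kdm3a. The list shares Pdk1 and Slc2a1 with the lists above. Vegfa, the growth factor of blood vessels (chr17:46327919-46343309, minus strand), was at 81.4, 100.3 and 107 CPM in WT and 40.5, 38.8 and 43.7 CPM in KO. Every KO library lay far below the lowest WT library (log2 fold change -1.22, SE 0.12, edgeR adjusted p = 1.44e-05, and -1.14 with adjusted p = 0.000247 without WT 3). Bnip3, which marks mitochondria for removal, was at 46.1, 57.6 and 65.3 CPM in WT and 38.0, 34.4 and 34.9 CPM in KO (log2 fold change -0.64, SE 0.12, edgeR adjusted p = 0.00461, and 0.0328 without WT 3).

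Among 10 tested factors and regulators of the hypoxia pathway, Hif3a was lower in both fits, and Egln2, an oxygen-sensing prolyl hydroxylase, was higher with all libraries only. Over all genes, 4.85% passed with all libraries and 1.16% in both fits. Hif3a is a member of the factor family whose short forms restrain the others, and it is itself induced by hypoxia. It was at 13.6, 17.2 and 24.5 CPM in WT and 7.19, 4.76 and 4.97 CPM in KO, a 3.22-fold lower level with all libraries (log2 fold change -1.69, SE 0.23, edgeR adjusted p = 0.000475, and -1.44 with adjusted p = 0.00528 without WT 3). Hif1a, the main oxygen-sensitive factor, was at 134, 126 and 154 CPM in WT and 124, 126 and 131 CPM in KO and did not pass (log2 fold change -0.12, SE 0.08, edgeR adjusted p = 0.422, and 0.874 without WT 3). Without both WT 2 and WT 3, adjusted p was 0.177 for Hif3a and 0.564 for Bnip3.

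The bases before the transcription starts of Slc2a1, Bnip3 and Vegfa are shown because hypoxia-inducible factors bind ACGTG in such regions, and because these were the genes with a match among the 11 glycolysis, hypoxia and HIF genes lower in both fits. Sequences are 250 bases before a RefSeq start, from build GRCm38.p6, 5′ to 3′ on the strand of the gene, with ACGTG or its reverse complement CACGT in capitals. The regions are chr4:119108495-119108744 (plus strand), chr7:138909507-138909756 (minus strand) and chr17:46032378-46032627 (minus strand).
Slc2a1: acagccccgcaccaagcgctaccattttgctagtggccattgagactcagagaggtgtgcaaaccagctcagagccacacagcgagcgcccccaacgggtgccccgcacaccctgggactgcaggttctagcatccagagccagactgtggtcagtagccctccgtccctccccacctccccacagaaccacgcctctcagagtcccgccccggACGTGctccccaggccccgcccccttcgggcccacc
Bnip3: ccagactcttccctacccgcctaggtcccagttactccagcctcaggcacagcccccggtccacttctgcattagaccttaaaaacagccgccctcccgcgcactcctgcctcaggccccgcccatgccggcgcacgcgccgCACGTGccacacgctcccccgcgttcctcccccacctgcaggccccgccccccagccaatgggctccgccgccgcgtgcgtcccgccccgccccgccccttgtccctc
Vegfa: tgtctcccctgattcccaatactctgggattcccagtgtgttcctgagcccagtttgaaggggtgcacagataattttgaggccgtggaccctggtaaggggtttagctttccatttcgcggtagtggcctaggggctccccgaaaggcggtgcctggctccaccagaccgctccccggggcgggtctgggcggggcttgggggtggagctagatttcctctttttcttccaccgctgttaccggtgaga
Of the 17 windows of the 11 glycolysis, hypoxia and HIF genes lower in both fits, 3 (17.6%) held ACGTG on either strand, near the 16.6% of all 32851 windows. The windows of Gpi1, Pfkl, Pfkp, Tpi1, Eno1, Pdk1, Kdm3a and Hif3a, which were lower as well, held none. The capitals in Bnip3 are 2 overlapping matches that together spell CACGTG, the E-box bound by other factor families. The Vegfa match lies at another listed start, inside the gene, and the window printed holds none. When GCGTG was counted as well, the share was 64.7% of the 17 windows and 38.6% of all windows. A match describes the letters of the window only.

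**Figure D4:**
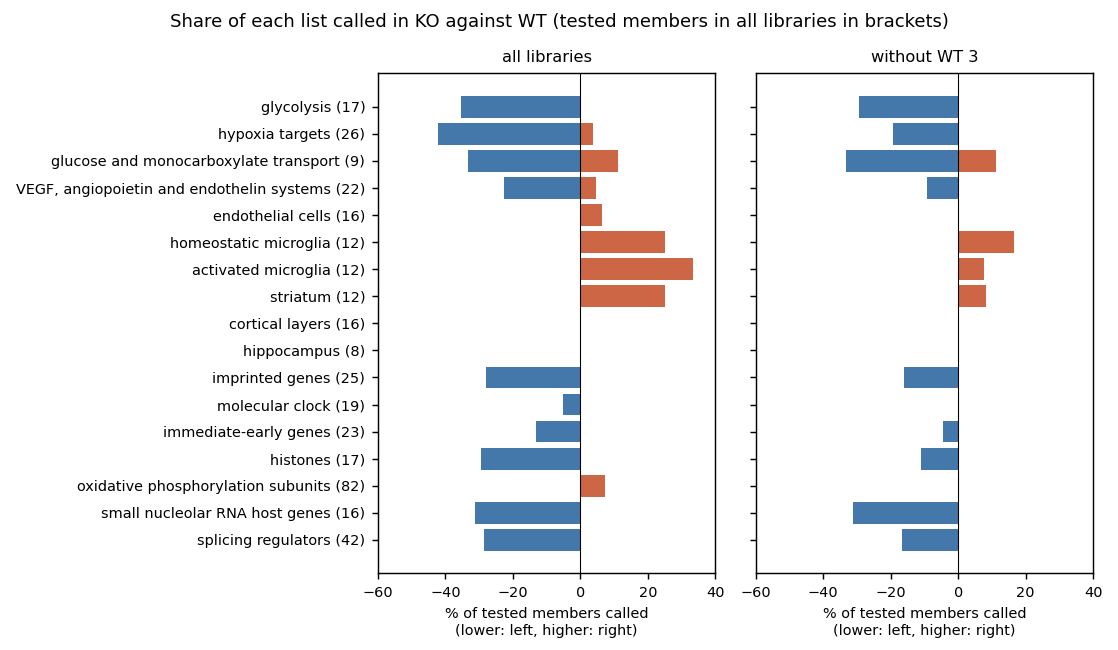
Bars give the percent of tested members of 17 gene lists called lower (blue, left) and higher (orange, right) in KO, with all libraries and without WT 3; the number tested with all libraries is in brackets. Glycolysis, hypoxia, imprinted and small nucleolar RNA host genes hold lower calls in both panels, and cortical layer and hippocampal markers hold none.

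The VEGF receptor Flt1 was lower in KO, while of the listed endothelial markers none passed as lower. Of 22 tested genes of the VEGF, angiopoietin and endothelin systems, Vegfa and Flt1 were lower in both fits, and with all libraries only Kdr, Angpt2 and Edn1 were lower and Aplnr, the apelin receptor, was higher. Over all genes, 3.05% were lower and 1.8% higher with all libraries, and 0.908% were lower in both fits. The median log2 fold change of the 22 was -0.02 with all libraries and -0.08 without WT 3. Flt1 was at 35.2, 49.8 and 63.5 CPM in WT and 19.6, 22.8 and 18.0 CPM in KO (log2 fold change -1.28, SE 0.19, edgeR adjusted p = 0.00207, 0.00558 without WT 3, and 0.202 without both WT 2 and WT 3). Of 16 tested endothelial markers, 1 (Sox18) was higher with all libraries and 0 passed without WT 3, with medians of 0.01 and -0.06. The summed level of the 16 was 227 to 245 CPM in WT and 212 to 282 CPM in KO. Pecam1, a junction protein of endothelium, was at 26.1, 31.8 and 34.7 CPM in WT and 17.7, 17.5 and 27.6 CPM in KO (edgeR adjusted p = 0.0605, and 0.233 without WT 3). The junction gene Cldn5 went the other way, at 33.7, 30.4 and 29.4 CPM in WT and 36.0, 36.8 and 46.7 CPM in KO (log2 fold change 0.35, edgeR adjusted p = 0.0906, and 0.241 without WT 3). The genotypes overlapped for the junction gene Cdh5 (edgeR adjusted p = 0.917, and 0.924 without WT 3). In bulk RNA, fewer cells of a type and less RNA per cell cannot be told apart.

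Genes of vessels that the rule of largest change picked were Vwf, Adgrl4, Ly6a, Ly6c1 and Bdkrb2. Vwf, the clotting protein von Willebrand factor, was at 45.7, 59.7 and 49.5 CPM in WT and 19.2, 18.9 and 27.2 CPM in KO (log2 fold change -1.24, SE 0.15, edgeR adjusted p = 0.000154, and 0.00237 without WT 3). Adgrl4, an adhesion receptor of endothelium, was at 26.5, 32.5 and 35.2 CPM in WT and 11.7, 11.6 and 14.8 CPM in KO (log2 fold change -1.29, SE 0.15, edgeR adjusted p = 7.68e-05, and 0.00107 without WT 3). Ly6c1, a surface protein of brain endothelium, fell by 1.20 on the log2 scale (edgeR adjusted p = 0.00517, and 0.00698 without WT 3). Its neighbour Ly6a, a surface protein of vessels and blood cells, was at 2.82 to 4.15 CPM in WT and 0.536 to 0.677 CPM in KO (edgeR adjusted p = 0.00132, and 0.00698 without WT 3). Of their sequence stretches, 42.8% of Ly6c1 and 14.1% of Ly6a also occur in another gene, so reads can be split between copies. Bdkrb2, the bradykinin receptor, was at 2.75, 2.07 and 1.60 CPM in WT and 0.319, 0.536 and 0.753 CPM in KO (edgeR adjusted p = 0.0178, and 0.0491 without WT 3). Without both WT 2 and WT 3, adjusted p was 0.0534 for Vwf, 0.0549 for Adgrl4, 0.137 for Ly6c1 and 0.212 for Ly6a, and without both WT 1 and WT 3 it was 0.335 for Bdkrb2, which passed in 20 of 30 alternatives.

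Some microglial genes were higher in KO. Of 12 tested homeostatic markers, 3 were higher with all libraries, and P2ry13 and Cx3cr1 passed in both fits, and of 12 tested activation markers 4 were higher with all libraries, and Spp1 passed in both. Over all genes, 1.8% were higher with all libraries and 0.249% in both fits. None of these markers passed the edgeR test as lower. Spp1, osteopontin, a secreted protein of microglia along growing axon tracts and of other cells, was at 9.07, 10.1 and 11.0 CPM in WT and 23.6, 29.0 and 27.3 CPM in KO. The KO libraries lay far above the WT libraries (log2 fold change 1.42, SE 0.15, edgeR adjusted p = 2.82e-05, and 1.48 with adjusted p = 0.000247 without WT 3). Cx3cr1, the fractalkine receptor, was at 11.8, 11.5 and 6.23 CPM in WT and 18.6, 21.2 and 17.8 CPM in KO (log2 fold change 0.91, SE 0.17, edgeR adjusted p = 0.00582, and 0.0237 without WT 3). P2ry13, a nucleotide receptor, was at 0.763, 1.61 and 1.78 CPM in WT and 4.55, 4.15 and 3.31 CPM in KO (edgeR adjusted p = 0.0153, and 0.0387 without WT 3). Without both WT 2 and WT 3, adjusted p was 0.304 for Cx3cr1, and without both WT 1 and WT 3 it was 0.344 for P2ry13. The summed level of the homeostatic list was 117 to 130 CPM in WT and 130 to 157 CPM in KO.

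Of 12 tested striatal genes, Drd1 was higher in both fits, and Adora2a was among those higher with all libraries only. Drd1, the dopamine receptor of direct-pathway neurons, was at 15.7, 12.9 and 10.3 CPM in WT and 30.1, 22.0 and 24.8 CPM in KO (log2 fold change 0.95, SE 0.16, edgeR adjusted p = 0.00243, and 0.0195 without WT 3). Gpr6, an orphan receptor of striatal neurons, was at 1.37, 0.576 and 0.534 CPM in WT and 3.35, 3.88 and 4.52 CPM in KO (log2 fold change 2.10, SE 0.38, edgeR adjusted p = 0.00389, and 0.0286 without WT 3). Drd1 had an adjusted p of 0.34 and Gpr6 of 0.401 without both WT 2 and WT 3. Drd2 and Ppp1r1b, markers of striatal neurons, had adjusted p of 0.306 and 0.096 with all libraries and 0.295 and 0.241 without WT 3. None of 8 hippocampal and none of 16 cortical layer markers passed in either fit. The summed level of 8 olfactory bulb markers was 46.1 to 61.7 CPM in WT, 44.1 CPM in KO 1 and 105 and 111 CPM in KO 2 and KO 3, and that of the choroid plexus markers was 596 to 761 CPM in WT and 333 to 548 CPM in KO. The part of these in the results was not tested.

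**Figure D5:**
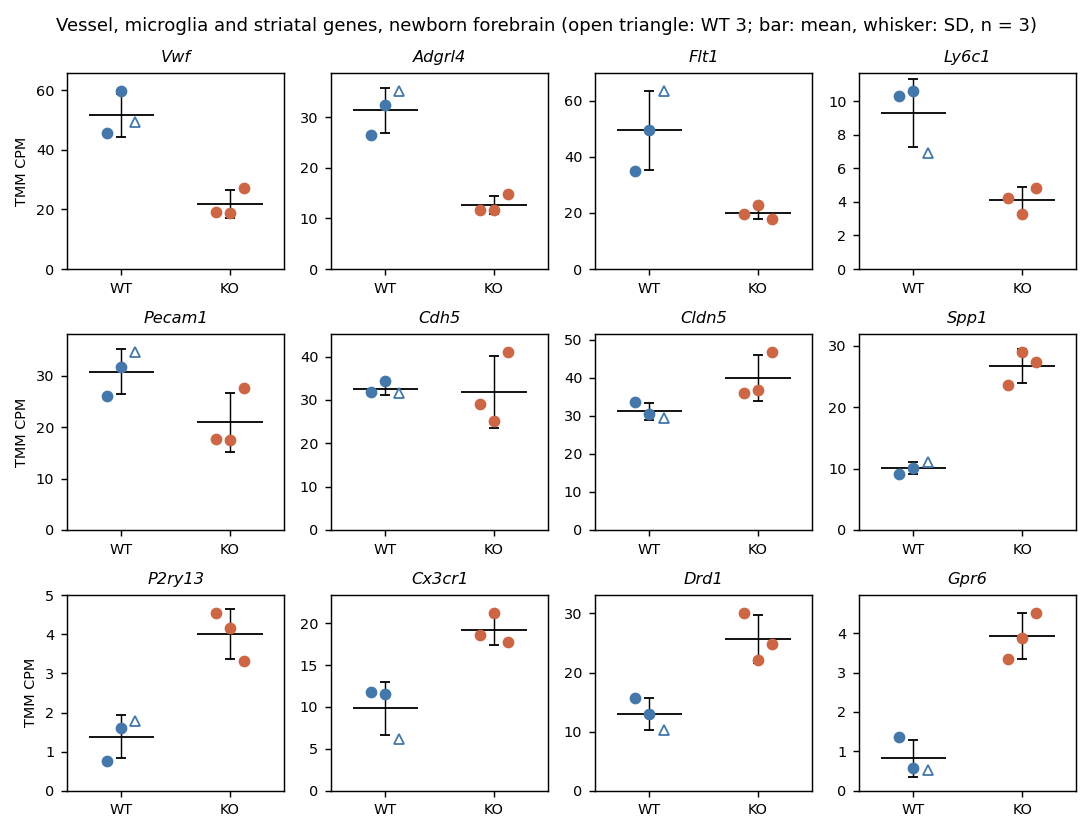
Points give TMM CPM of 12 vessel, microglial and striatal genes in the 3 WT (blue; open triangle, WT 3) and 3 KO (orange) forebrain libraries, with the mean as a bar and the SD as whiskers; each vertical axis starts at 0. Vwf, Adgrl4, Flt1 and Ly6c1 are lower and Spp1, P2ry13, Cx3cr1, Drd1 and Gpr6 higher in KO without overlap, while Pecam1 and Cdh5 overlap. Cldn5 is higher in KO without overlap but did not pass the test.

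Among 25 tested imprinted genes, 7 were lower and 0 higher with all libraries, and Meg3, Cdkn1c, Plagl1 and H19 were lower in both fits. Over all genes, 3.05% were lower with all libraries and 0.908% in both fits. Meg3, a maternally expressed long noncoding RNA, was at 1425, 1176 and 1336 CPM in WT and 858, 763 and 773 CPM in KO (log2 fold change -0.72, SE 0.09, edgeR adjusted p = 0.000223, and 0.00262 without WT 3). Cdkn1c, an inhibitor of the cell cycle, was at 59.3, 66.4 and 77.0 CPM in WT and 41.8, 37.9 and 41.8 CPM in KO (edgeR adjusted p = 0.00109, and 0.00934 without WT 3). H19 and Plagl1 were highest in WT 3, at 175 and 162 CPM against 98.1 to 107 and 93.6 to 94.9 CPM in the other WT libraries, and at 30.7 to 56.2 and 57.0 to 67.4 CPM in KO. Without both WT 2 and WT 3, adjusted p was 0.259 for Cdkn1c, 0.184 for H19 and 0.134 for Plagl1, and without both WT 1 and WT 3 it was 0.0623 for Meg3. Of 8 tested markers of meninges and fibroblasts, which include the imprinted gene Igf2, 7 had values below 0 and 0 passed with all libraries (median log2 fold change -0.34), and 0 of 9 passed without WT 3. Their summed level was 815, 772 and 932 CPM in WT and 497, 590 and 921 CPM in KO, and its part in the results was not tested. Zfp57, which keeps imprints and was chosen after its values were seen, fell by 0.68 on the log2 scale (edgeR adjusted p = 0.000549, 0.00698 without WT 3, and 0.134 without both WT 2 and WT 3).

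Of 1011 long noncoding RNAs tested, 1 was higher and 36 were lower with all libraries, and 18 of 1103 were lower and 0 higher without WT 3. These are 3.66% and 1.63% of those tested, against 4.85% and 1.15% of all genes, of whose calls 62.8% and 78.3% were lower. The list of small nucleolar RNA host genes was chosen after its values were seen. Of its 16 tested members, 5 were lower in both fits (Snhg1, Snhg5, Snhg11, Snhg14 and Snhg17), against 0.908% of all genes. Snhg11, a neuronal transcript, was at 370, 273 and 373 CPM in WT and 174, 204 and 177 CPM in KO (log2 fold change -0.87, SE 0.11, edgeR adjusted p = 0.000344, and 0.00475 without WT 3). Malat1, a nuclear RNA also chosen after its values were seen, was at 529, 460 and 871 CPM in WT and 221, 202 and 154 CPM in KO (log2 fold change -1.69, SE 0.27, edgeR adjusted p = 0.0222, and -1.36 with adjusted p = 0.000327 without WT 3). Splicing regulators, a list of SR proteins, hnRNPs and related families, were likewise chosen afterwards. Of 42 tested members, 12 were lower and 0 higher with all libraries, and 7 were lower without WT 3. Over all genes, 3.05% were lower with all libraries and 0.901% without WT 3. Under library size alone, 6 and 3 members were lower. Srsf11, an SR protein, was at 194, 191 and 220 CPM in WT and 141, 130.1 and 138 CPM in KO (edgeR adjusted p = 0.000727, and 0.00578 without WT 3). Adjusted p was 0.134 for Srsf11 without both WT 2 and WT 3, 0.0577 for Snhg11 without both WT 1 and WT 3, and 0.0844 for Malat1 without KO 2.

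Other genes named by the rule of largest change were mostly lowly expressed. H1f2, a linker histone whose transcripts usually lack a poly-A tail, was at 20.7, 25.9 and 29.0 CPM in WT and 3.51, 5.63 and 7.83 CPM in KO (log2 fold change -2.14, SE 0.32, edgeR adjusted p = 0.00508, and 0.0283 without WT 3). Gvin2, an interferon-inducible GTPase, had 54 counts over the WT libraries and 3 over the KO libraries, a ratio of 26.7 with an exact 95% counting interval of 8.68 to 134. Of its stretches, 98.3% also occur in Gvin1, so the assignment of these reads is uncertain. Lgi2, a secreted neuronal protein, was at 39.7, 36.1 and 35.0 CPM in WT and 64.1, 76.6 and 80.6 CPM in KO (log2 fold change 0.99, SE 0.11, edgeR adjusted p = 3.08e-05, and 0.000507 without WT 3). Slc38a5, a glutamine transporter on the X chromosome, was at 8.92, 9.45 and 11.0 CPM in WT and 19.4, 19.8 and 20.5 CPM in KO (log2 fold change 1.04, SE 0.17, edgeR adjusted p = 0.00184, and 0.00698 without WT 3). The adjusted p of H1f2 was 0.257 and that of Slc38a5 0.134 without both WT 2 and WT 3. The other protein-coding genes picked were Hspb6, C130074G19Rik, Inka2 and Utp20, with log2 fold changes of 0.93 to 1.13 with all libraries, and Gm43517, at -1.87. The picked genes of other kinds were Mrpl23-ps1 (1.68) and Gm10221 (0.98), which share 92.5% and 100% of their stretches with other genes, the pseudogene Rbpj-ps3 (-2.70), and D230049E03Rik (-3.78) and Gm43279 (-3.37), which the annotation lists as still to be experimentally verified and which were at most 0.335 and 1.05 CPM in KO. Over the X chromosome as a whole 5.31% of tested genes passed with all libraries and 1.04% without WT 3, near the 4.85% and 1.15% of all genes.

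Rbpj, the transcription factor of the Notch pathway, was chosen after its values were seen. It was at 37.7, 35.0 and 37.2 CPM in WT and 74.9, 60.6 and 63.2 CPM in KO (log2 fold change 0.85, SE 0.11, edgeR adjusted p = 0.00027, 0.00262 without WT 3, and 0.112 without both WT 2 and WT 3). Its pseudogene Rbpj-ps3, which the rule picked, with 89.0% of its stretches in other genes, was at 6.58 to 6.91 CPM in WT and 0.639 to 1.43 CPM in KO. Their summed level was 43.4 ± 1.27 CPM in WT and 67.3 ± 7.32 CPM in KO (SD, n = 3 each).

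Some immediate-early and glucocorticoid-induced genes were lower in KO. For the lists below, the share of all genes called was 4.85% with all libraries, of which 3.05% were lower and 1.8% higher, and 1.16% in both fits. Of 23 tested immediate-early genes, 3 (Jun, Dusp1 and Maff) were lower and 0 higher with all libraries, and the median log2 fold change was -0.40, and -0.42 without WT 3. Jun was lower in both fits, at 51.7, 60.9 and 61.0 CPM in WT and 36.6, 37.0 and 41.7 CPM in KO (edgeR adjusted p = 0.00655, and 0.0372 without WT 3). Of 12 tested glucocorticoid-induced genes, 2 (Per1 and Klf9) were lower and 0 higher with all libraries, with medians of -0.36 and -0.40. Klf9 was lower in both fits (edgeR adjusted p = 0.0123, and 0.0195 without WT 3). Adjusted p was 0.528 for Jun and 0.31 for Klf9 without both WT 2 and WT 3. Of 19 tested clock genes, Per1 was lower with all libraries and did not pass without WT 3 (edgeR adjusted p = 0.0122 and 0.0662). None of 21 cell division genes, 17 apoptosis genes, 11 ATF4-response genes, 8 neurotrophin genes or 8 interferon genes passed in either edgeR fit. The same held for 8 heat-shock and cold-inducible genes. Of 82 tested cytosolic ribosomal protein genes, 3 (3.66%) passed with all libraries, and Rpl35a was lower in both fits, and of 17 tested histone genes 5 were lower with all libraries, and H1f2 and H2ac25 in both. The tested markers of mural cells, interneurons, radial glia and astrocytes, neuronal progenitors, oligodendrocytes, choroid plexus and red blood cells gave 1 or 2 calls a list with all libraries and 0 without WT 3. Within 5 Mb of Bglap on chromosome 3, 8 of 130 tested genes passed with all libraries and 2 without WT 3, Efna3 higher and Gm3764 lower, and over chromosome 3 the share was 6.11% and 1.68%.

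The Ocn+/- forebrains share the WT libraries with the comparison above, so the levels are set side by side only. Mean levels in Ocn+/- were 43.2 CPM for Vegfa, 36.0 CPM for Slc2a1, 177 CPM for Gpi1, 29.2 CPM for Spp1 and 19.7 CPM for Drd1. Between KO and Ocn+/-, whose mothers had the same genotype, 1 gene (Gm16105) passed the edgeR test in each fit, with 515 genes at an unadjusted p under 0.05 with all libraries and 627 without WT 3.

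Testes had 3 KO and 2 WT libraries, separate from those of forebrain. Whether both tissues came from the same pups is not stated in the sources used here. The test of the tissue difference treated all 17 libraries as independent. In testes, Vegfa and Slc2a1 were also lower in KO, by log2 fold changes of -1.24 and -0.92. Of 16361 genes tested there, 5.64% passed. The difference between the tissues was 0.02 for Vegfa (SE 0.19, edgeR adjusted p = 0.99) and -0.21 for Slc2a1 (SE 0.19, edgeR adjusted p = 0.642), which did not pass, and without WT 3 adjusted p was 0.905 and 0.779. Spp1 moved in opposite directions, with a log2 fold change of -0.72 in testes and a difference of 2.15 (SE 0.21, edgeR adjusted p = 2.78e-06, and 2.03e-05 without WT 3). Of 17800 genes, 219 (1.23%) had a difference past the threshold, and without WT 3 it was 0.676% of 17760 genes.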

How the data were processed

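Poly-A RNA of newborn forebrain was sequenced, and the deposited table holds expected counts per gene, which the authors made with Trim Galore 0.6.6, STAR 2.7.8a and RSEM 1.3.3 on GRCm39 (mm39). The strand setting and the annotation release were not given in the sources used here. The expected counts were rounded to whole numbers. Genes were filtered by filterByExpr, scaled by TMM and tested with edgeR 4.0.16 (R 4.3.3) robust quasi-likelihood with genotype as the only term, once on all 9 forebrain libraries and once without WT 3, with Benjamini-Hochberg adjustment over all genes tested and a threshold of 0.05. The Ocn+/- libraries entered both fits to estimate the spread. Each sample is called a replicate by its title, and nothing tied replicates to litters, so p-values measure the spread between these samples. The tissue difference was an interaction term over all 17 libraries. DESeq2 1.42.0 and limma 3.58.1 gave alternatives. Counting intervals cover counting error only.

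The members and gene lists were chosen with earlier results of these data known. Genes named were the 10 higher and 10 lower protein-coding genes, and up to 3 each of other kinds, with the largest mean log2 fold change over both fits among genes called in both with non-overlapping libraries and at least 1 CPM in the higher genotype, and up to 4 members of a list called in both. Shared sequence was counted as the percent of 50-base stretches of a gene's longest transcript found in another gene of GENCODE. Of 55359 identifiers, 54749 were found in that annotation. The edgeR code was tested on simulated data. Depth was 6518128 to 14621550 gene counts per forebrain library.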

Additional observations from a re-analysis of the deposited data

Results flagged for a closer look

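For 13 (8.97%) of 145 genes that were picked by the rule or its lists, or added afterwards, and tested in each tissue, the log2 fold change of KO over WT differed between forebrain and testes, tested as an interaction in edgeR with adjusted p under 0.05. Over all genes the share was 1.23%, and 0.676% without WT 3. Many of the 145 were picked for their forebrain change, which enters the difference, so nothing is read from their share. The libraries of the tissues are separate, though some may come from the same pups, and WT 3, the forebrain library that stood apart, is among them.

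The difference, forebrain minus testes, was 2.15 for Spp1, 1.32 for C130074G19Rik, 1.36 for Lgi2, 0.91 for Bnip3, 1.54 for Fosl2, 3.72 for Chac1 and -1.95 for Gria2, and these 7 also passed without WT 3. Bnip3 was lower in both tissues, by -0.64 in forebrain and -1.55 in testes. Fosl2 and Chac1 had forebrain values of 0.09 and 0.74 that did not pass and testes values of -1.45 and -2.97. Gria2, a glutamate receptor subunit, was at 2.48 CPM in WT testes and 7.37 CPM in KO testes.

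The difference was 0.61 for Eno1, 0.75 for Slc16a1, 1.06 for Igf1, 1.18 for Klf9, -1.04 for Sox9 and -0.94 for Snhg1. These 6 did not pass without WT 3 (edgeR adjusted p = 0.0782, 0.0992, 0.131, 0.0549, 0.0575 and 0.0569).

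Drd1 also had a difference past the threshold (3.78, SE 0.84, edgeR adjusted p = 0.0277, and 0.0445 without WT 3), but it did not pass the filter on low counts in testes, where its mean was 0.951 CPM in WT and 0.124 CPM in KO.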

How the results depend on the processing

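No named gene that was called changed direction under any alternative. With all libraries, 780 genes were called, and 1502 with no filter on low counts. With single libraries left out, the count ran from 189 to 888. Without WT 3, 189 genes were called, and 416 by DESeq2, 451 by the edgeR likelihood ratio test, 508 by limma-voom with sample weights, 725 with no filter on low counts and 124 with library size alone. With a further library left out, the count ran from 15 to 343. Library size alone also turned the split with all libraries from 290 higher and 490 lower to 415 higher and 228 lower. The tissue difference gave 219 genes, and 537 by DESeq2, 625 with no filter and 120 without WT 3. The share of promoter windows with the motif moved from 17.6% to 64.7% when GCGTG was counted too. The cause of these changes was not tested.

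Whether the replicate numbers pair the samples was not settled. The deviations of same-numbered KO and WT libraries correlated at 0.03, -0.03 and -0.04, and not every library correlated best with its own number. The Ocn+/- libraries were not part of this check, so structure shared by replicate number can be missed. With the replicate block, 1140 genes were called with all libraries and 979 without WT 3. The lowest count of a library was 6518128, in WT 3, and the WT group held 2 libraries without it. How far depth or group size set the counts of calls was not tested.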
